A study of Mus musculus with 9 samples.

Results

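Neurotrophins are secreted growth factors that keep neurons alive and tune their synapses. Brain-derived neurotrophic factor (BDNF) and neurotrophin-3 signal through the receptor tyrosine kinases TrkB and TrkC, while p75NTR and sortilin form a second receptor system that also binds the uncleaved precursors. In the hippocampus, BDNF is made by excitatory neurons in response to activity, and it is known for its part in synaptic plasticity, memory and mood. The 7 genes described here were chosen by name as the ligands (Bdnf, Ntf3), the receptors (Ntrk2 for TrkB, Ntrk3 for TrkC, Ngfr for p75NTR, Sort1 for sortilin) and a target of BDNF signalling (Vgf), out of 47643 genes in the count matrix. A further 73 genes of the same pathway were listed by role, and all of them were found in the matrix. The members and lists were chosen with earlier results of these data known. Their shares of called genes, given beside those of all genes, are therefore descriptions and no test.

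Hippocampal mRNA of mice aged 6 weeks was sequenced in 9 libraries, 3 in each of 3 groups. By the study's legends, its columns of MRL/mpj and MRL/lpr are single mice. Its table's columns headed MRL/lpr match the libraries labelled MRL/lpr+MSC, as described below, so which lupus group this covers is not settled. For both lupus groups, p-values therefore measure only the spread between libraries, which may be technical. MRL/mpj mice, labelled wild type and untreated, were the controls. MRL/lpr mice, a model of lupus, share the MRL background and carry the lpr insertion in Fas throughout the body, so the Fas defect is not limited to a brain cell type. The third group, MRL/lpr+MSC, consisted of MRL/lpr mice given MSC (mesenchymal stem cells), whose source, dose and route are not given in the sources used here. The labels name the strain of every mouse as C57BL/6, whereas the study's methods give MRL/MpJ and MRL/MpJ-Fas lpr.

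The group names need a caution that touches every result. The study's own table of normalized values has 3 columns headed MRL/lpr. Each was the deposited count of 1 MRL/lpr+MSC library times a fixed factor, for 100% of genes checked, and its columns headed MRL/mpj matched the MRL/mpj libraries in the same way. The names below are those of the labels, and both lupus groups were compared with MRL/mpj for that reason. Fas itself did not separate the groups, with 30 to 43 counts per library in MRL/mpj, 31 to 65 in MRL/lpr and 19 to 41 in MRL/lpr+MSC. Library totals ran from 19475804 to 26912031 counts, and levels below are in CPM, the count scaled to a common library size by TMM. The limit that a count of 0 allows, 3 counts, lay between 0.105 and 0.163 CPM and covers counting error only. Markers of dentate granule cells and of CA1, CA2 and CA3 pyramidal cells were counted in every group, and none of these 18 genes was at 0 throughout a group. Markers of neighbouring regions differed between libraries. The summed choroid plexus markers reached 9685 CPM in MRL/lpr replicate 2 and 4873 CPM in MRL/lpr+MSC replicate 2, against 104 to 1089 CPM in the other 7 libraries.

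Sort1 was the single neurotrophin gene of the 7 that passed the test, and its level was lower in MRL/lpr mice than in MRL/mpj controls. Ntrk3 was also lower in the MRL/lpr libraries but did not pass, as its change was under 1.5-fold. Ngfr was higher in all 3 MRL/lpr libraries than in any MRL/mpj library, without passing the test. Bdnf had a lower mean in both lupus groups without passing it, and Ntf3 and Vgf had overlapping values throughout. A gene was called when its Benjamini-Hochberg adjusted p in limma voom, over all genes tested, was under 0.05 and its change at least 1.5-fold. By that rule 1 of the 7 genes was called in MRL/lpr against MRL/mpj, where 5.79% of 16697 genes tested were called. For MRL/lpr+MSC against MRL/mpj 0 of 7 were called, against 3.43% of 16196 genes. Between the lupus groups 0 of 7 and 0% of 16758 genes were called. An unadjusted p under 0.05 by limma voom was found there for 647 genes of all and 0 of the 7. That is a smaller share of all genes than the 0.05 that no difference would give. No other tool was run.

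**Figure D1:**
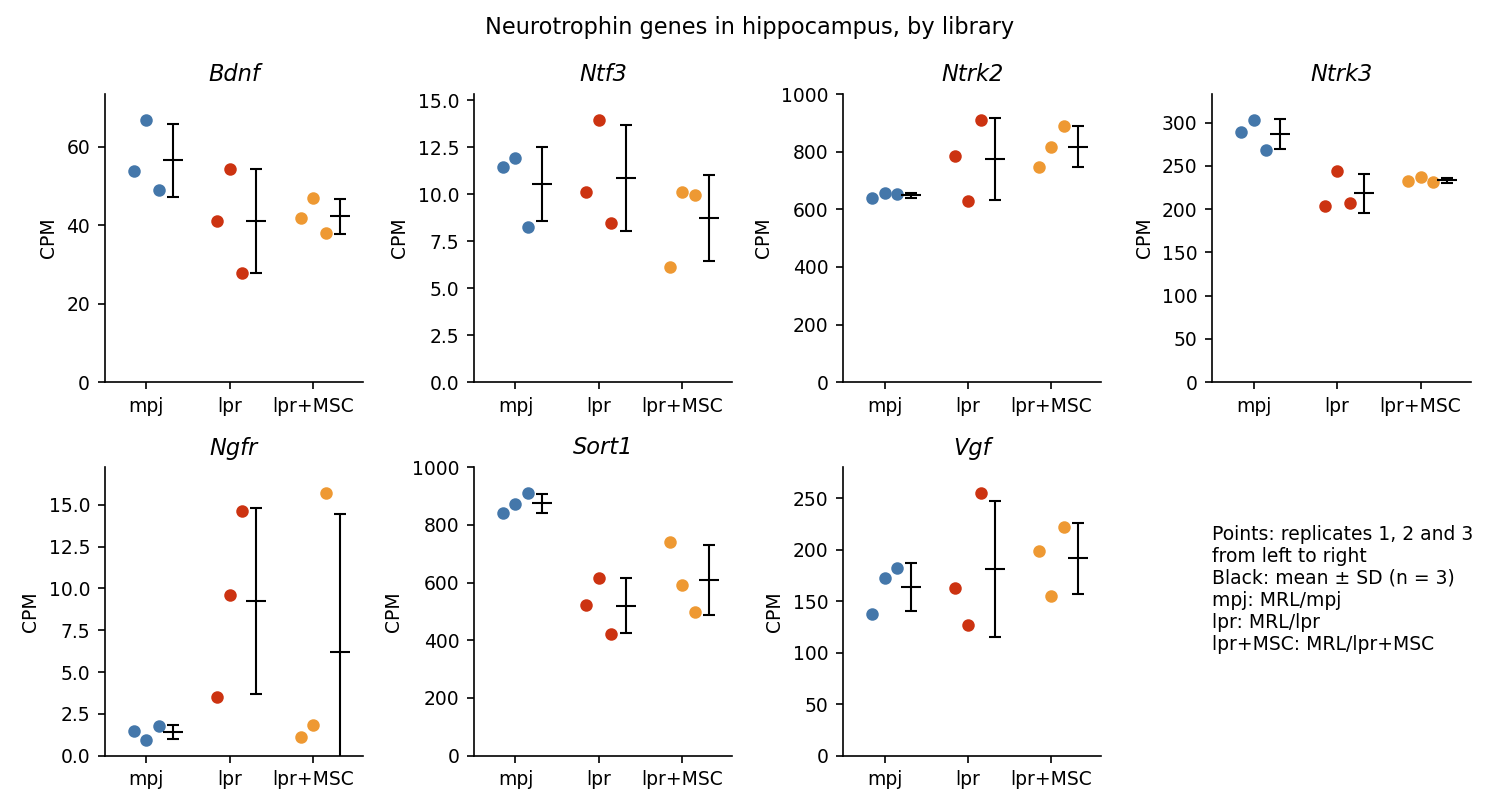
CPM (linear axes from 0) of the 7 neurotrophin genes in each of the 9 libraries, with the mean and SD of each group of 3 in black. The 3 MRL/lpr points of Sort1 and Ntrk3 lie below all MRL/mpj points, and Ngfr is near 15 CPM in 1 MRL/lpr and 1 MRL/lpr+MSC library, where the lower error bar of MRL/lpr+MSC ends at the axis.

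Levels of different genes can be set side by side per length, in the FPKM that the authors computed from counts, gene length and library size. In MRL/mpj mice Sort1 led with 116 ± 5.24 FPKM (SD, n = 3), ahead of Vgf with 55.3 ± 8.04 and Ntrk2 with 47.1 ± 0.801 FPKM, whose ranges overlapped each other. Ntrk3 with 9.54 ± 0.516 and Bdnf with 9.11 ± 1.45 FPKM also overlapped, Ntf3 followed at 6.16 ± 1.12, and Ngfr was lowest at 0.407 ± 0.127 FPKM. The order of the means was the same in all 3 groups. The gap below Sort1 was not: its range of 55.9 to 80.5 FPKM in MRL/lpr mice overlapped that of Vgf, 42.2 to 85.5 FPKM, and in MRL/lpr+MSC mice Sort1 at 65.9 to 98.6 FPKM again overlapped Vgf at 51.5 to 74.8. By FPKM, Ntrk2 thus had several times the level of Ntrk3, and the ligand Bdnf was below its receptor Ntrk2 in each library. The size of the gap between Ntrk2 and Ntrk3 depends on the gene lengths used. In CPM, which takes no account of length, their MRL/mpj means were 649 and 287.

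**Figure D2:**
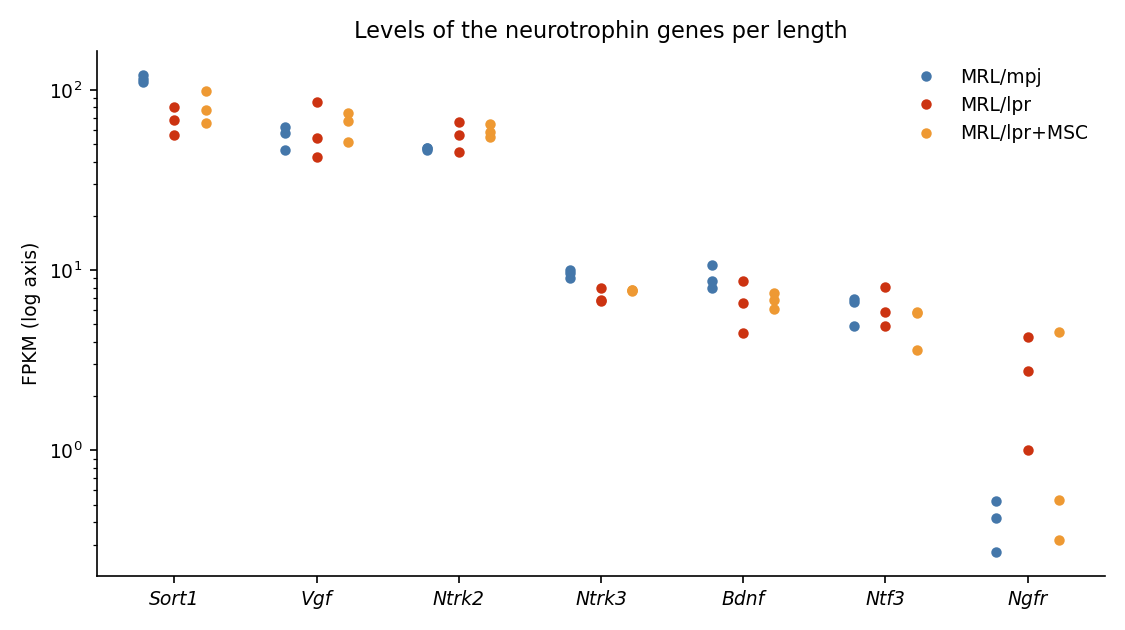
FPKM on a log axis of the 7 genes in the order of their MRL/mpj means, with 1 point per library and colours for the 3 groups. Sort1, Vgf and Ntrk2 form the upper set between 42.2 and 121 FPKM, and Ngfr spans 0.274 to 4.55 FPKM.

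Bdnf encodes BDNF and lies on chromosome 2 (109674700 to 109727007, plus strand, GRCm38), where 11 annotated transcripts begin at several starts and share the coding exon. The counts add these transcripts together, so use of single starts was not measured. Of the 7 genes, 4 have promoter windows in the RefSeq table of GRCm38.p6 (Bdnf 7 windows, Ntf3 2, Ntrk2 1, Ngfr 1), while Ntrk3, Sort1 and Vgf have none there. The sequence from Bdnf below is shown because that start is known for its response to neuronal activity through a variant of the cAMP response element, and because regulators of Bdnf transcription are among the pathway genes described further on. The sequence from Ngfr is shown as the promoter of the gene with the widest range, and capitals mark the element TCACGTCA in Bdnf and the GC box GGGCGG in Ngfr, each searched on both strands.
Bdnf chr2:109692316-109692435, plus strand: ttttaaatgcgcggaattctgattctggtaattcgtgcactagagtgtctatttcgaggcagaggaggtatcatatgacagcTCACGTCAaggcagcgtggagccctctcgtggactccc
Ngfr chr11:95587739-95587818, minus strand: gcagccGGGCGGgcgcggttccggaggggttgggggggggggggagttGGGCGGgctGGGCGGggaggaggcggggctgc
The element of Bdnf begins 38 bases before the start, occurs in 1 of the 7 Bdnf windows, and is found in 0.441% of 32851 promoter windows of the same length. The full cAMP response element TGACGTCA was in none of the Bdnf windows and in 1.79% of all windows. Ngfr had 4 GC boxes in its window, 3 of them in the stretch printed, and 35.7% of all windows hold at least 1. These matches describe letters in the reference and say nothing of binding in these mice.

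Bdnf stood at 53.9, 66.9 and 48.9 CPM in MRL/mpj replicates 1 to 3, at 41.1, 54.4 and 27.8 CPM in MRL/lpr, and at 42.0, 46.9 and 38.1 CPM in MRL/lpr+MSC. Replicate 2 of MRL/lpr lay within the MRL/mpj range, whereas all 3 MRL/lpr+MSC libraries lay below it. The log2 fold change was -0.50 ± 0.246 (SE) in MRL/lpr against MRL/mpj (limma voom adjusted p = 0.219) and -0.41 ± 0.134 in MRL/lpr+MSC against MRL/mpj (adjusted p = 0.129). Between the lupus groups it was 0.09, with a 95% interval from -0.48 to 0.67. A decline of Bdnf was therefore not established at this depth and number of libraries.

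Ntf3 encodes neurotrophin-3, the preferred ligand of TrkC, and lies on chromosome 6 (126101412 to 126166910, minus strand). It had 11.4, 11.9 and 8.27 CPM in MRL/mpj, 10.1, 14.0 and 8.45 CPM in MRL/lpr, and 6.12, 10.1 and 9.94 CPM in MRL/lpr+MSC. The groups overlapped in each comparison, and MRL/lpr and MRL/mpj means were within 1 SD of each other. Its log2 fold change was 0.01 (95% interval -0.52 to 0.54) in MRL/lpr against MRL/mpj and -0.28 (-0.83 to 0.27) in MRL/lpr+MSC against MRL/mpj, with limma voom adjusted p of 0.980 and 0.520. Both intervals span 0.

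Ntrk2 encodes TrkB and lies on chromosome 13 (58806569 to 59133970, plus strand). Its gene count adds the full-length kinase receptor of neurons to the truncated forms that astrocytes make, among 10 annotated transcripts. MRL/mpj libraries were close together at 639, 657 and 652 CPM. MRL/lpr libraries had 785, 630 and 911 CPM, with replicate 2 below every control, and MRL/lpr+MSC libraries had 747, 816 and 889 CPM, all above the controls. The log2 fold change was 0.24 ± 0.131 in MRL/lpr (limma voom adjusted p = 0.254) and 0.33 ± 0.0841 in MRL/lpr+MSC mice (adjusted p = 0.0706), both against MRL/mpj. The coefficient of variation was 1.44% among MRL/mpj libraries and 18.2% among MRL/lpr libraries, so the lupus libraries differed more among themselves than the controls did.

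Ntrk3 encodes TrkC and lies on chromosome 7 (78175959 to 78738012, minus strand, 20 annotated transcripts). Its values were 290, 303 and 269 CPM in MRL/mpj and 204, 244 and 207 CPM in MRL/lpr mice. MRL/lpr+MSC libraries were nearly equal at 233, 237 and 231 CPM, also below each control. In MRL/lpr against MRL/mpj the log2 fold change was -0.39 ± 0.0913, with a limma voom adjusted p of 0.0446, and at 1.31-fold lower it stayed under the 1.5-fold limit. Against MRL/mpj, MRL/lpr+MSC gave -0.29 ± 0.07 (adjusted p = 0.0611). Gm9885, a gene on the opposite strand within Ntrk3, had 72 to 134 counts per library against 4485 to 7057 for Ntrk3, and since no use of strand is stated, reads of such antisense partners cannot be told apart from those of the gene. Bdnf, Ntrk2 and Sort1 also have antisense genes annotated within them. That of Sort1, Gm12523, had 0 to 5 counts per library against 10022 to 20308 for Sort1. Those of Bdnf and Ntrk2 were not in the matrix.

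Sort1 encodes sortilin, a Vps10p-domain receptor that binds the precursors of neurotrophins together with p75NTR and also sorts BDNF towards regulated secretion. It lies on chromosome 3 (108284082 to 108361511, plus strand). MRL/mpj libraries had 841, 873 and 910 CPM. MRL/lpr libraries had 521, 615 and 423 CPM, all below the controls, and MRL/lpr+MSC libraries had 740, 590 and 499 CPM, below the controls as well. Sort1 fell by 0.76 on the log2 scale (SE 0.135), or 1.70-fold, in MRL/lpr against MRL/mpj mice (limma voom adjusted p = 0.0233). It stood 1.45-fold lower in MRL/lpr+MSC mice than in the controls, at a log2 fold change of -0.53 ± 0.141 and an adjusted p of 0.0794. The difference between the lupus groups was 0.23, with a 95% interval from -0.22 to 0.69, so the groups were not shown to differ.

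The call for Sort1 rested on the full set of libraries. Without MRL/mpj replicate 1, 2 or 3 or MRL/lpr replicate 1, the log2 fold change ran from -0.73 to -0.79 with limma voom adjusted p of 0.0748 to 0.105, and in a test against a 1.5-fold change the call was lost as well. Without MRL/lpr+MSC replicate 1, the highest of its group, Sort1 was called in MRL/lpr+MSC against MRL/mpj at -0.68 (adjusted p = 0.0039). Markers of CA1 pyramidal cells were also lower in MRL/lpr mice, where 5 of 6 were called, beside 5.79% of all genes tested. Their summed level was 764 to 884 CPM in MRL/mpj. Within the lupus groups they did not follow Sort1 from library to library, with 536, 294 and 504 CPM in MRL/lpr replicates 1 to 3, lowest where Sort1 was highest, and 613, 713 and 529 CPM in MRL/lpr+MSC. Summed markers of CA2 and CA3 pyramidal cells, of which 0 of 6 were called in MRL/lpr against MRL/mpj, had the same order as Sort1 in both lupus groups, with 415, 545 and 292 CPM in MRL/lpr and 530, 398 and 350 in MRL/lpr+MSC, against 476 to 601 in MRL/mpj. Markers of neocortical neurons, with 2 of 6 called lower in MRL/lpr, shared that order at 142, 147 and 125 CPM in MRL/lpr and 224, 173 and 129 in MRL/lpr+MSC, against 172 to 179 in MRL/mpj. Both lists were named for this match among all the marker lists, and in MRL/mpj neither had the order of Sort1. Markers of neurons in general had another order, at 4214, 4752 and 4490 CPM in MRL/lpr and 6827, 4598 and 4716 in MRL/lpr+MSC. None of those 6 was called in MRL/lpr against MRL/mpj, and all 6 had a negative log2 fold change. None of these marker genes was at 0 throughout a group. The part of these cell types in the Sort1 and Ntrk3 values was not tested, and in bulk tissue fewer cells of a type and less RNA per cell cannot be told apart.

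**Figure D3:**
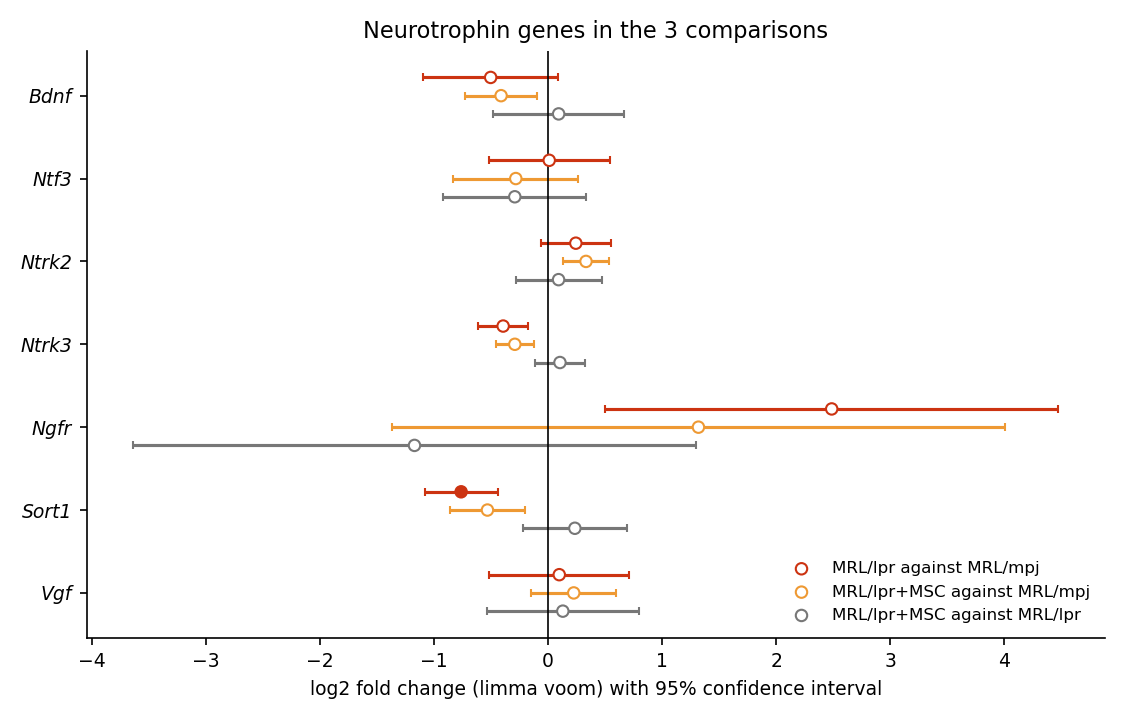
log2 fold change with its 95% confidence interval from limma voom for the 7 genes in the 3 comparisons, where a filled point marks a called gene. Sort1 in MRL/lpr against MRL/mpj, at -0.76, is the single filled point, and the intervals of Ngfr are the widest.

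Ngfr encodes p75NTR, which in the adult forebrain is carried mainly by cholinergic neurons of the basal forebrain that project to the hippocampus. It lies on chromosome 11 (95568818 to 95587735, minus strand). The libraries had 29, 22 and 33 counts (1.45, 0.946 and 1.80 CPM) in MRL/mpj mice. In MRL/lpr mice they had 100, 223 and 346 counts (3.49, 9.60 and 14.6 CPM), every one above the controls. Among MRL/lpr+MSC libraries, 21 and 40 counts (1.09 and 1.86 CPM) were near the controls, while replicate 3 had 355 counts (15.7 CPM). The fit for MRL/lpr against MRL/mpj gave a log2 fold change of 2.49 ± 0.829, with a 95% interval from 0.50 to 4.48 and a limma voom adjusted p of 0.104. Against MRL/mpj, MRL/lpr+MSC gave 1.32 ± 1.12 (adjusted p = 0.535), and the coefficient of variation within MRL/lpr+MSC was 132%.

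The cholinergic genes Chat and Slc5a7 followed Ngfr from library to library. Chat, the acetylcholine-synthesizing enzyme, had 1, 1 and 2 counts in MRL/mpj, 14, 56 and 178 in MRL/lpr, and 0, 4 and 188 in MRL/lpr+MSC. Slc5a7, the choline transporter, had 8, 3 and 8, then 53, 248 and 365, then 6, 28 and 338 counts. The same 2 libraries, MRL/lpr replicate 3 and MRL/lpr+MSC replicate 3, were highest for both genes as for Ngfr. Lhx8 and Gbx1, transcription factors of forebrain cholinergic neurons, had at most 20 counts in 7 libraries, and in those 2 they had 221 to 223 and 214 to 232 counts. They did not follow Ngfr in MRL/lpr replicate 2. There Ngfr had 223 counts, while Lhx8 had 2 and Gbx1 had 1, no more than in MRL/mpj. The summed level of the 5 cholinergic markers was 0.387 to 0.599 CPM in MRL/mpj, 4.09 to 47.2 in MRL/lpr and 0.519 to 47.5 in MRL/lpr+MSC, and 4 of the 5 had no more than 3 counts in each MRL/mpj library. Their part in the Ngfr values was not tested.

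With the 3 libraries above 10 CPM of these markers left out, an alternative chosen after seeing the data, MRL/lpr kept 1 library, assumed to vary like the controls. The libraries left out were also those with the most Ngfr, at 9.60, 14.6 and 15.7 CPM. Ngfr then had a log2 fold change of 1.40 against MRL/mpj, in a library that still had 4.09 CPM of cholinergic markers. With 1 library left in MRL/lpr and the highest Ngfr values removed, no call is read from it. Without MRL/lpr replicate 1, Ngfr was called at 3.15 (limma voom adjusted p = 0.0257).

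**Figure D4:**
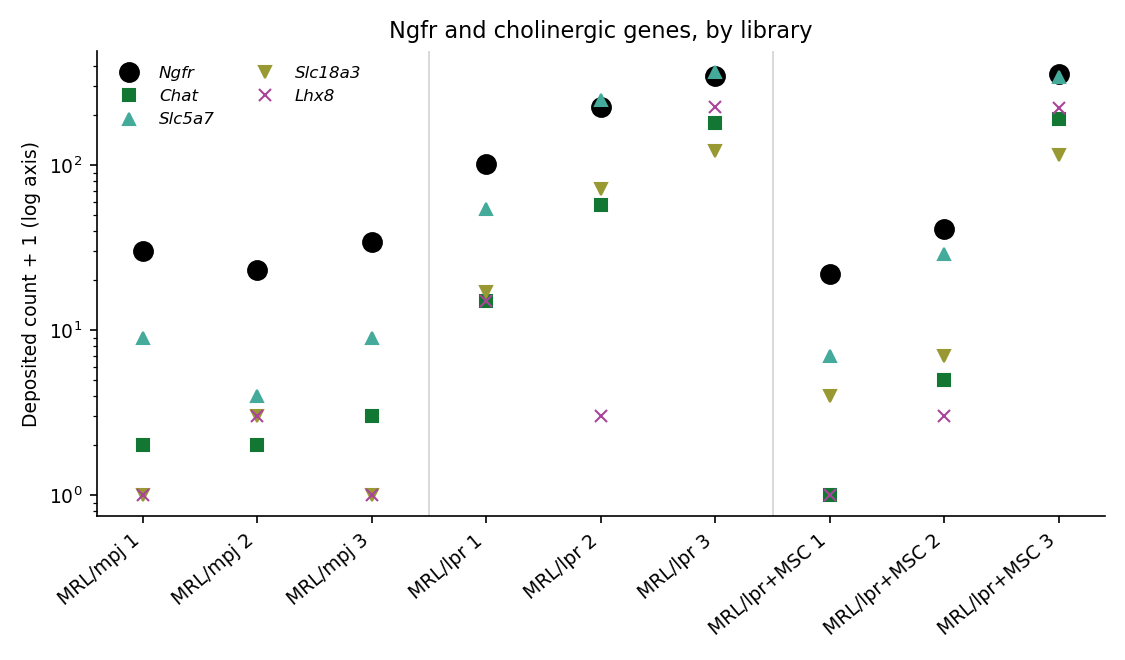
Deposited counts plus 1, on a log axis, of Ngfr and 4 cholinergic genes in the 9 libraries, separated by group with grey lines. The highest points of all 5 genes are in MRL/lpr replicate 3 and MRL/lpr+MSC replicate 3, where Ngfr has 346 and 355 counts.

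Vgf encodes a secreted neuropeptide precursor whose transcription rises with BDNF and activity, and it lies on chromosome 5 (137026392 to 137033351, plus strand). It had 138, 172 and 182 CPM in MRL/mpj, 163, 127 and 255 CPM in MRL/lpr, and 199, 154 and 222 CPM in MRL/lpr+MSC. MRL/lpr libraries held both the lowest and the highest value of the 9. The log2 fold change was 0.10 ± 0.255 in MRL/lpr (limma voom adjusted p = 0.823) and 0.22 ± 0.159 in MRL/lpr+MSC mice (adjusted p = 0.448), both against MRL/mpj.

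Across the family, 3 of the 7 genes (Sort1, Ntrk3 and Ngfr) had no overlap between MRL/lpr and MRL/mpj libraries, where 38.0% of the genes tested had none. Between MRL/lpr+MSC and MRL/mpj, 4 of 7 (Bdnf, Ntrk2, Ntrk3 and Sort1) had none, where 29.6% of genes had none. Between the lupus groups 0 of 7 were free of overlap, where 9.98% of genes were, and limma voom adjusted p of the 7 ran from 0.921 to 0.960. The median log2 fold change of the 7 was 0.01, -0.28 and 0.09 in the 3 comparisons in that order, against 0.02, 0.01 and -0.00 over all genes tested. The comparisons with MRL/mpj share the same 3 control libraries.

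Of the other ligands and receptors, 0 of 6 tested were called in MRL/lpr and 0 of 7 in MRL/lpr+MSC against MRL/mpj. Ntf5, which encodes neurotrophin-4, had 4 to 49 counts in any library. The highest were 49 in MRL/lpr replicate 2 and 26 in MRL/lpr+MSC replicate 2. Those libraries also had the highest summed choroid plexus markers, and a link between them was not tested.

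Genes that process neurotrophin precursors and release them included 1 called gene in each comparison with MRL/mpj, of 15 tested in MRL/lpr and 14 in MRL/lpr+MSC. Of all genes tested, 5.79% and 3.43% were called. Cadps2, which promotes the release of dense-core vesicles containing BDNF, had 99.9, 115 and 102 CPM in MRL/mpj and 56.5, 62.5 and 62.0 CPM in MRL/lpr mice. It fell by 0.80 on the log2 scale (SE 0.0797, limma voom adjusted p = 0.00415), and it was the called pathway gene that kept its call in MRL/lpr whichever library was left out. MRL/lpr+MSC libraries had 84.7, 82.7 and 58.9 CPM, with a log2 fold change of -0.50 (adjusted p = 0.102). Pcsk1, a convertase that cleaves peptide precursors in secretory granules, had 7.24, 9.20 and 10.3 CPM in MRL/mpj and 16.9, 15.6 and 16.6 CPM in MRL/lpr+MSC mice. It rose by 0.90 (SE 0.138, adjusted p = 0.0171) there, and stood at 16.4, 9.56 and 18.8 CPM in MRL/lpr mice (log2 fold change 0.72, adjusted p = 0.163). The other 14 tested genes of the list in MRL/lpr and 13 in MRL/lpr+MSC, Furin among them, were not called.

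Genes of Trk signalling, from adaptors such as Shc and Frs to Ras, MAP kinase and Akt, gave 0 calls among 30 tested in each of the 3 comparisons. Their median log2 fold change was -0.06 in MRL/lpr and 0.00 in MRL/lpr+MSC mice against MRL/mpj.

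Regulators of Bdnf transcription held 3 called genes of 9 in MRL/lpr against MRL/mpj and 0 of 9 in MRL/lpr+MSC against MRL/mpj. Of all genes tested, 5.79% and 3.43% were called in these comparisons. Camk4, the calcium-dependent kinase that phosphorylates CREB, had 195, 215 and 252 CPM in MRL/mpj and 93.7, 119 and 78.2 CPM in MRL/lpr mice. It fell by 1.20 (SE 0.167, limma voom adjusted p = 0.0136). It was, in MRL/lpr+MSC replicate 1, at 189 CPM, near the controls, and replicates 2 and 3 were at 109 and 89.8 CPM. In each group Camk4 had the library order of Sort1. The part of cell types in the values of Camk4 and the other called pathway genes was not tested. Arnt2, a dimer partner of the activity-dependent factor NPAS4, fell by 0.63 (SE 0.118, adjusted p = 0.0268), from 222 to 248 CPM in MRL/mpj to 130 to 178 CPM in MRL/lpr. Rest, a repressor of neuronal genes including Bdnf, rose by 0.83 (SE 0.176, adjusted p = 0.0362), from 6.42 to 9.97 CPM to 12.8 to 14.6 CPM. For Creb1, the factor that Camk4 phosphorylates, the log2 fold change was 0.12 (adjusted p = 0.334).

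Among 12 genes induced by activity or BDNF, 2 were called lower in MRL/lpr and 1 in MRL/lpr+MSC against MRL/mpj, where 5.79% and 3.43% of all genes tested were called. Nptx2, a secreted pentraxin of excitatory synapses, had 53.3, 59.7 and 62.2 CPM in MRL/mpj, 34.9, 38.8 and 23.2 CPM in MRL/lpr, and between 20.6 and 32.7 CPM in MRL/lpr+MSC. It fell by 0.88 (SE 0.183, limma voom adjusted p = 0.0363) in MRL/lpr and by 1.05 (SE 0.172, adjusted p = 0.0234) in MRL/lpr+MSC, the one gene of the lists called in both. Npy, the inhibitory neuropeptide Y, fell by 0.72 (SE 0.132, adjusted p = 0.0254) in MRL/lpr mice, from 21.8 to 28.4 CPM in MRL/mpj to 14.3 to 16.7 CPM. Of the 12, 9 had a negative and 3 a positive log2 fold change in MRL/lpr. The immediate early genes Arc and Egr1 had opposite signs and neither passed the test. Arc had 119, 58.4 and 181 CPM in MRL/lpr mice against 52.0, 102 and 43.5 CPM in MRL/mpj (log2 fold change 0.80, adjusted p = 0.305), and Egr1 differed by -0.61 on the log2 scale (adjusted p = 0.212).

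Over these 5 lists, 6 of 72 tested genes (8.33%) were called in MRL/lpr against MRL/mpj, 1 higher and 5 lower, beside the 5.79% of all genes given above. For MRL/lpr+MSC against MRL/mpj 2 of 72 (2.78%) were called, beside 3.43%, and 0 of 73 between the lupus groups. The median log2 fold changes of the listed genes were -0.07, -0.03 and 0.07 in that order. As the lists were chosen with earlier results known, the shares called are no test of them against all genes. In a test against a 1.5-fold change none of these calls held. Apart from Cadps2, each called pathway gene also lost its call in limma voom when 1 library was left out. In MRL/lpr mice Nptx2 and Arnt2 lost it without MRL/mpj replicate 1, 2 or 3 or MRL/lpr replicate 1, and Arnt2 also without MRL/lpr replicate 2. Rest lost it without MRL/mpj replicate 1 or 3 or MRL/lpr replicate 1, and Camk4 and Npy without MRL/mpj replicate 2 or 3 or MRL/lpr replicate 1, with adjusted p between 0.0574 and 0.138 for these losses other than that of Arnt2 without MRL/lpr replicate 2. With MRL/lpr+MSC mice, Nptx2 lost it without MRL/mpj replicate 1, 2 or 3 and Pcsk1 also without MRL/lpr+MSC replicate 3, with adjusted p of 0.0502 to 0.103. Pcsk1 also lost its call with all 9 libraries in 1 fit (adjusted p = 0.113) and without the library above 10 CPM of cholinergic markers (adjusted p = 0.0656).

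**Figure D5:**
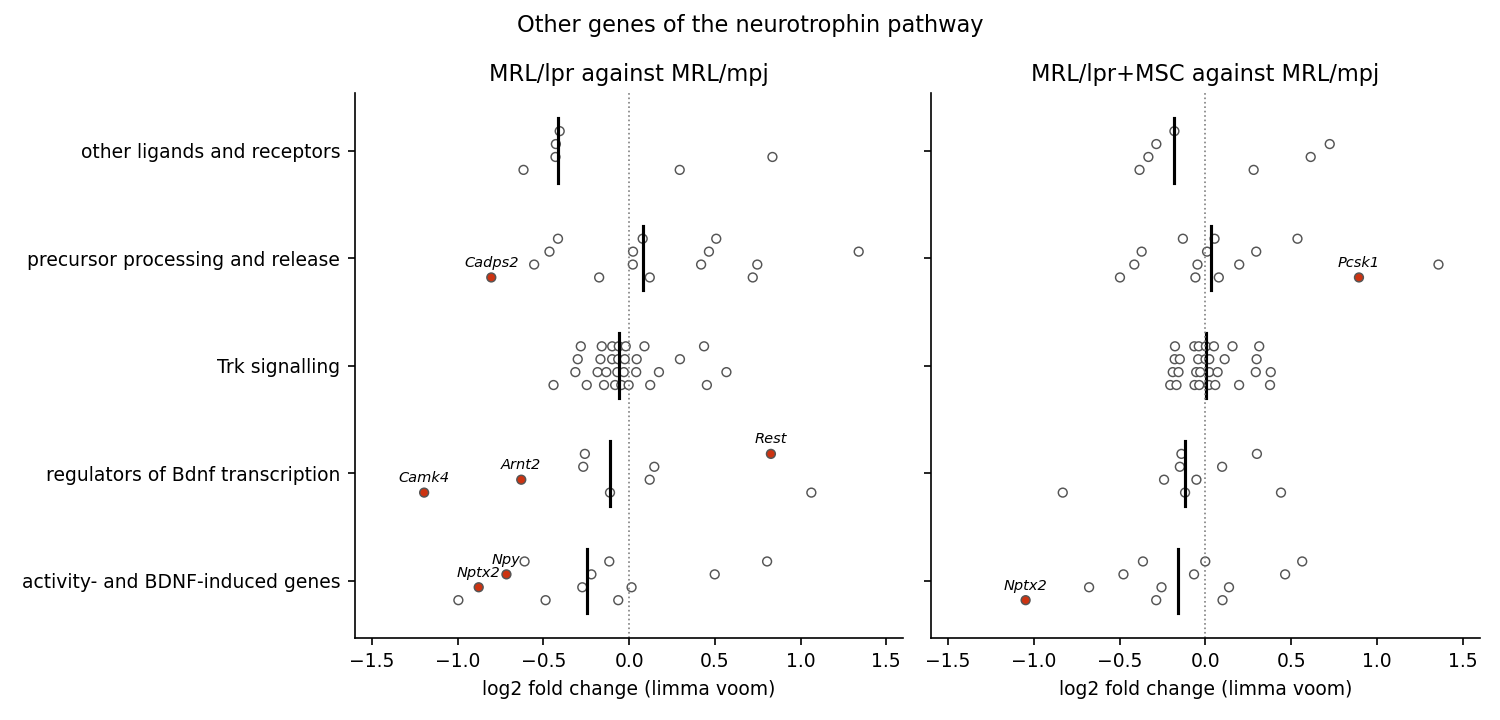
log2 fold change from limma voom of the listed pathway genes against MRL/mpj, in MRL/lpr (left) and MRL/lpr+MSC (right), with 1 row per list, a black bar at the list's median and called genes filled and named. The left panel has 6 filled points, of which Camk4 at -1.20 lies farthest from 0, and the right panel has 2.

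The genes whose log2 CPM followed each of the 7 most closely over the 9 libraries differed from gene to gene. Each r given is among the highest of 17112 genes compared, describes 9 points that fall into 3 groups, and carries no test. Sort1 went with Gabra5, a GABA-A receptor subunit rich in hippocampal pyramidal cells (r = 0.992), and with Prickle2 (0.992). Ntrk3 went with Cry2, Gabra4 and Vsig2 (r = 0.984, 0.982 and 0.980). Ngfr went with Chat (0.986), Slc5a7 (0.982) and Bloc1s5 (0.965), which places it beside cholinergic genes in these libraries. Ntrk2 went with Gm17396, Kcnn3 and Gng4 (r = 0.987, 0.982 and 0.980), and Bdnf with Med15, Tbc1d14 and Kcnj6 (0.975, 0.964 and 0.956). Ntf3 went with Fam163b, Sema5a and Plk5 (r = 0.982, 0.961 and 0.956), and Vgf with Nrsn2, Atg9b and Inafm1 (0.978, 0.973 and 0.972). No neurotrophin gene was among the 3 closest of another.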

How the data were processed

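The authors sequenced poly(A)-selected hippocampal mRNA, and their methods name STAR (mm10) and HTSeq, while the submitters' processing notes name TopHat2 and GRCm38. They deposited 1 matrix of raw counts per gene without normalization, a unit registered here as other because of its column separator, and FPKM values made from counts and gene lengths. Use of strand is not stated. Columns with values but no sample numbered 0.

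Here, counts were scaled by TMM (30% and 5% trims) to CPM. Genes with at least 10 counts (scaled to the median library) in 3 libraries and 15 in total were tested by limma voom with robust moderation (limma 3.58.1, R 4.3.3) and Benjamini-Hochberg adjustment, each comparison on its own 6 libraries. The test was checked on simulated data with the same spread in both groups, so the check does not cover lupus libraries that varied more than the controls. The plan named edgeR's quasi-likelihood test, and limma voom, an alternative in it, took its place since the unit could not be registered as counts. DESeq2, the authors' test, was not run either.

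The members, lists and markers were chosen with earlier results of these data known. Some planned pathway genes, and 1 list with them, are not reported here and were left out of the counts. Named genes are the 7 members, pathway genes called in any comparison, Ntf5, up to 3 genes closest to each member, and markers that move with one. Creb1, Arc, Egr1 and Furin were named after their values were seen. Symbols came from GENCODE (47224 of 47643 genes), and the listed symbol Nov was matched as Ccn3. Libraries of a group differed beyond sampling noise (chi-square per gene at least 9.84).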

Additional observations from a re-analysis of the deposited data

How the results depend on the processing

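Genes called in MRL/lpr against MRL/mpj numbered 967, with 104 in a test against a 1.5-fold change, 2065 with library quality weights, 1968 without the libraries above 10 CPM of cholinergic markers, and 135 to 1483 with each library left out in turn. Called members numbered 1, with 0 in the test against 1.5-fold, 2 without the cholinergic libraries, and 0 to 1 with each library left out. In MRL/lpr+MSC against MRL/mpj, 556 genes were called, with 100 against 1.5-fold, 1177 with quality weights, 232 without the cholinergic library, and 158 to 1346 with each library left out. Called members numbered 0, with 1 (Sort1, limma voom adjusted p = 0.0124) under quality weights and 0 to 1 with a library left out. Quality weights and leaving out the cholinergic libraries were chosen after seeing the data. In MRL/lpr against MRL/mpj, leaving out the cholinergic libraries kept 1 MRL/lpr library, assumed to vary like the controls. No spread within MRL/lpr entered that fit. Its larger counts of called genes and members therefore cannot show more differences, and no call is read from them. In MRL/lpr+MSC against MRL/lpr all 14 alternatives gave 0 genes.

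With the replicate number as a block (the replicate block), 2 members were called in MRL/lpr against MRL/mpj, Sort1 and Ngfr (log2 fold change 2.66, adjusted p = 0.0329), and 283 genes in MRL/lpr+MSC against MRL/mpj. Under the block the calls of Rest and Nptx2 in MRL/lpr (adjusted p = 0.0552 and 0.0515) and of Pcsk1 in MRL/lpr+MSC (0.0604) were lost. Same-numbered libraries did not all deviate together (r from -0.21 to 0.36 over the comparisons), so the numbers were not taken as pairs. In the order of the comparisons, r was -0.02, -0.03 and -0.21 for replicate 1, and 0.20, 0.13 and 0.23 for replicate 2. For replicate 3 it was 0.09, 0.36 and 0.33. Libraries of different number gave r from -0.42 to 0.23. Whether libraries of the same number shared their handling was not tested. Of 294 alternative values of the members' fold changes, 273 kept direction and side of the threshold. Those that turned were small. Ntf3 in MRL/lpr against MRL/mpj went to -4.4e-05 with median-of-ratios size factors, -0.0061 with quality weights, -0.035 without the cholinergic libraries, and between -0.16 and 0.17 with each library left out (-0.13 when this was MRL/mpj replicate 3, -0.16 when MRL/lpr replicate 2). Vgf there ran from -0.17 to 0.33 with each left out (-0.021 when this was MRL/mpj replicate 1, -0.17 when MRL/lpr replicate 3). Between the lupus groups, Ntrk2 was -0.022 without the cholinergic libraries, and with each library left out Ntrk2 ran from -0.060 to 0.23 and Vgf from -0.11 to 0.42 (lowest when this was MRL/lpr replicate 2), and Bdnf from -0.15 to 0.31 (lowest when MRL/lpr replicate 3). For the called pathway genes, 74 of 112 values kept the call, 38 lost it and 0 changed direction. Why these counts and values moved was not tested, except that fewer libraries entered some fits. DESeq2 and the quasi-likelihood test were not run. The effect of depth on the intervals of Bdnf, Ntf3, Vgf and Ngfr was not tested.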
